A study of Mus musculus with 7 samples.

Results

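Transcripts of mural cells, smooth muscle and the platelet-derived growth factor (PDGF) receptors were followed in sorted follicular dendritic cells (FDCs) with and without Ngfr. The genes were chosen by symbol: the contractile genes Acta2, Myh11, Tagln and Cnn1, the intermediate filament gene Des, the receptor genes Pdgfra and Pdgfrb, and the mural cell genes Rgs5, Cspg4 and Mcam. Of these 10 genes, 9 have a row among the 21176 genes of the deposited table, and the expression of Cnn1 was not analysed here. The RNA was that of FDCs isolated by cell sorting out of the popliteal lymph nodes of male mice, 8 to 12 weeks old, that had not been immunized. The 4 wild-type (WT) samples and 3 Ngfr KO samples, which the labels describe by genotype only, were each a pool of nodes from several animals. Ngfr encodes p75, the low-affinity neurotrophin receptor, and the comparison asks which transcripts differ when it is lost. Strain, sort markers and the design of the Ngfr allele are not given in the sources used here.

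Pericytes wrap capillaries and share with vascular smooth muscle a set of contractile and cytoskeletal genes that serum response factor (SRF) drives through CArG boxes, with myocardin family proteins as its partners. PDGF-B made by endothelium recruits mural cells through the receptor PDGFRB, whereas PDGFRA is the main receptor of fibroblastic stroma and of PDGF-A. Follicular dendritic cells have been traced to perivascular precursors that carry PDGFRB, and reticular stroma of the lymph node also contracts, so several of these genes are not restricted to mural cells. MCAM (CD146) lies on endothelial as well as mural cells, and desmin is also a filament of skeletal muscle.

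Promoter sequence is shown for the genes whose values are compared below, because CArG boxes are what the contractile genes are known to share. A CArG box was searched as CC and GG around 6 middle bases that are all A or T, which reads the same on both strands, in the 250 bases before each RefSeq start site on GRCm38.p6. That form stood in 1.47% of 32851 such windows, and a looser form with at least 5 of the 6 middle bases A or T stood in 8.59%. A gene with more than 1 window is counted below if any of its windows held the form. The gene counts are therefore not on the same measure as these shares of single windows. Of the 7 listed genes with a RefSeq window, 0 held the strict form and 1, Acta2, held the looser form, at 2 places. Cnn1 was among these 7, whereas Myh11, Tagln and Pdgfrb had no window and were not searched. In the lists described further on, the strict form was found for 4 of 25 contractile apparatus genes with a window (Myl9, Myl6, Cnn2 and Vcl) and for 3 of 7 SRF regulator genes (Srf, Fhl1 and Fhl2). Of these 7 genes, Cnn2 and Fhl1 were called higher in Ngfr KO and the others passed no test as reported: limma log2 changes were -0.03 for Myl6, -0.10 for Vcl and -0.57 for Srf, and edgeR gave -0.28 for Myl9 and 1.03 for Fhl2. Over all 8326 genes tested by limma, 18.3% were called higher and 15.8% lower. Fhl1 had fewer than 3 WT samples at a value of 1, so its WT samples alone would not have passed the filter for testing. Whether a box goes with a change was not tested. The boxes of the 2 called genes are shown beside those of Acta2. The following 30-base stretches show these boxes in capitals, 5′ to 3′ on the gene's strand. They lie at chr19:34255438-34255467 and chr19:34255388-34255417 (Acta2, minus strand), chr10:79988534-79988563 (Cnn2, plus strand) and chrX:56779571-56779600 (Fhl1, plus strand).
Acta2 upstream box: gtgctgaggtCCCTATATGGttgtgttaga
Acta2 downstream box: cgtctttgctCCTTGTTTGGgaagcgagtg
Cnn2: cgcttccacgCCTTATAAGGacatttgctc
Fhl1: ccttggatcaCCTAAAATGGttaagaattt

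The windows of Des (chr1:75360042-75360291, plus strand) and Pdgfra (chr5:75152001-75152250, plus strand) are shown whole, since both genes were higher in Ngfr KO and neither window held a CArG box of either form. Capitals mark E-boxes (CANNTG, which reads the same on both strands), the element of muscle basic helix-loop-helix factors. An E-box stood in 66.2% of the 32851 windows, and these matches describe letters, not bound sites.
Des: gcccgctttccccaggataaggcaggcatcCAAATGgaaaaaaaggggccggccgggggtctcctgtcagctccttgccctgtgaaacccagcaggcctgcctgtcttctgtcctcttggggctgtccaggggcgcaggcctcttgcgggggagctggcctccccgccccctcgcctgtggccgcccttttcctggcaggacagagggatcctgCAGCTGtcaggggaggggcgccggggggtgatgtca
Pdgfra: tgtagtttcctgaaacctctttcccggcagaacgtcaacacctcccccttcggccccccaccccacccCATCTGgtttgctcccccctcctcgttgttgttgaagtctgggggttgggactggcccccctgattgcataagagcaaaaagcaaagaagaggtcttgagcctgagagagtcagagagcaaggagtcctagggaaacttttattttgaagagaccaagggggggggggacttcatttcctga

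Means are given ± SD over 4 WT and 3 Ngfr KO samples throughout. Values are the normalised signal that the authors deposited, in which a value of 1 was worth 230 to 295 reads. Libraries held 17244925 to 18873542 reads in WT and 20741770 to 21538400 in Ngfr KO, so the knockout libraries were all the deeper ones, and depth and genotype cannot be told apart. Ngfr itself was covered by 97 to 298 reads in WT and by 46 to 104 reads in Ngfr KO (edgeR log2 change -1.55, adjusted p = 0.0574). DESeq2 on the same reads called it lower (log2 change -1.57, adjusted p = 0.0132), and its normalised values did not overlap between groups. The summed value of 10 FDC markers (Cr2, Mfge8, Cxcl13 and others) was 1753 to 4945 in WT against 7601 to 10129 in Ngfr KO. The summed value of 14 endothelial markers was 118 to 165 in WT against 28.8 to 50.6 in Ngfr KO, with all 12 tested genes called lower. Of these 12 genes, 7 passed the filter (a value of 1 in 3 or more samples) only through WT samples. Passing only through 1 group means here and below that fewer than 3 samples of the other group reached a value of 1. Over all genes tested by limma 18.3% were called higher and 15.8% lower, with a median log2 change of 0.02. The summed value of 12 reticular stroma markers was 122 to 299 in WT against 354 to 409 in Ngfr KO, with 3 of 10 tested genes called higher, 1 lower and 6 not called, and a median log2 change of 0.17. Thy1, the gene called lower, passed the filter only through WT samples. Within the reticular stroma sum Dcn alone was 37.5 to 69.3 in WT against 151 to 248 in Ngfr KO. WT replicate 4 had a sum of 299 with Dcn at 69.3, and Ngfr KO replicate 3 had 354 with Dcn at 195. The ranges of the reticular stroma sum therefore overlap between groups once Dcn is left out. Most of the FDC marker sum was Cxcl13, Clu and Mfge8. These were 859, 669 and 70.1 in WT replicate 1 and 2731, 2954 and 1172 in Ngfr KO replicate 1. Clu and Mfge8 were called higher, while Cxcl13 overlapped between groups and was not called (limma adjusted p = 0.180). Scaling to this sum is therefore a ratio to few genes. Per 1000 units of the FDC marker sum, Myh11 was 1.085 to 1.43 in WT against 0.896 to 1.04 in Ngfr KO. Pdgfra was 1.68 to 2.76 against 1.29 to 1.53 and Rgs5 6.22 to 8.03 against 2.46 to 4.94, each with Ngfr KO below. Des (0.483 to 0.885 against 0.757 to 1.16) and Acta2 (0.797 to 1.68 against 0.263 to 0.988) overlapped on this scale. The part of these shifts in the results that follow was not tested, and in such bulk samples fewer cells of a type and less RNA per cell cannot be told apart.

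**Figure D1:**
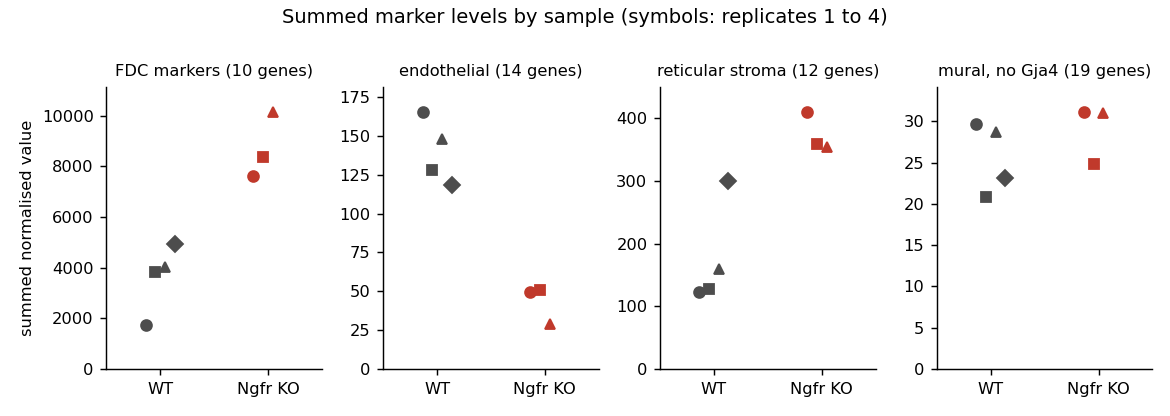
Summed normalised values (y axis) of 4 marker lists in each sample, with WT in grey, Ngfr KO in red and symbols for replicates 1 to 4. FDC and reticular stroma sums lay higher and endothelial sums lower in Ngfr KO, while the mural sum without Gja4 overlapped between genotypes. The reticular stroma sum includes Dcn, which by itself was higher in every Ngfr KO sample. Without Dcn the ranges of that sum overlap between genotypes, and no sum without Dcn is shown.

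The name pericyte genes was checked against the data. Of the genes that define pericytes, Cspg4, which encodes the proteoglycan NG2, had 0 to 21 reads per sample, and Notch3, the Notch receptor of mural cells, had 0 to 27. Pdgfrb had 31 to 136 reads, and Rgs5 had 3160 to 12507. The pericyte channel genes Kcnj8 and Abcc9 had 353 to 1352 and 572 to 1303 reads. Of the 20 other mural genes in the table, which include Notch3, Kcnj8 and Abcc9, 6 stayed under 50 reads in every sample. Per kilobase of exon, WT means were 0.00225 for Cspg4, 0.00487 for Notch3, 0.0585 for Pdgfrb and 5.55 for Rgs5. The list therefore mixes genes at or near 0 with genes that these sorted samples carry in quantity, and the genes are named singly below rather than read as a cell type. B-cell markers summed to 7.54 to 25.5 over all samples, T-cell markers to 2.95 to 10.02, and the single skeletal muscle marker in the table, Mylpf, reached at most 0.430.

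Of the filament and contractile genes, Des and Myh11 rose, whereas Acta2 and Tagln passed no test as reported. Des (ENSMUSG00000026208), which encodes the intermediate filament protein desmin, had values of 1.22, 1.85, 2.83 and 4.38 in WT replicates 1 to 4 and of 6.98, 9.67 and 7.67 in Ngfr KO replicates 1 to 3. Every Ngfr KO sample lay above every WT sample. The mean rose from 2.57 ± 1.37 to 8.11 ± 1.40, which is 3.15 times the WT mean. On the log2(value + 1) scale the change was 1.42 (SE 0.26, limma adjusted p = 0.00207), and it was called under each of the 17 alternatives that gave it a value. Des lies on chromosome 1 from 75360329 to 75368579 (plus strand, GRCm38, GENCODE M21), and the antisense gene Gm15179 over 5.86% of its exon length had at most 8 reads.

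Myh11 (ENSMUSG00000018830), the myosin heavy chain of smooth muscle, had values of 2.28, 5.49, 4.36 and 6.48 in WT replicates 1 to 4 and of 6.81, 7.97 and 10.6 in Ngfr KO replicates 1 to 3. The groups did not overlap, but Ngfr KO replicate 1 lay close to WT replicate 4. The mean rose from 4.65 ± 1.81 to 8.45 ± 1.93 (log2 change 0.79, SE 0.26, adjusted p = 0.0336 by limma). The call was lost with edgeR on the recovered reads (log2 change 0.92, adjusted p = 0.0732), with quantile normalization (limma adjusted p = 0.0613) and with no filter (limma adjusted p = 0.119). It was also lost without WT replicate 1, WT replicate 3, Ngfr KO replicate 2 or Ngfr KO replicate 3, with limma adjusted p-values of 0.0693, 0.0597, 0.0777 and 0.112. Myh11 lies on chromosome 16 from 14194535 to 14291372 (minus strand, GRCm38).

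Acta2 (ENSMUSG00000035783), which encodes smooth muscle alpha-actin, had values of 2.95, 3.39, 3.80 and 3.94 in WT replicates 1 to 4 and of 7.51, 3.84 and 2.66 in Ngfr KO replicates 1 to 3. The WT samples lay close together, and Ngfr KO replicates 1 and 3 were the highest and the lowest of all 7 samples. The change of 0.24 (SE 0.24, limma adjusted p = 0.452) was within the spread between replicates, with a 95% interval from -0.28 to 0.76. Without Ngfr KO replicate 1 it was -0.10 (limma adjusted p = 0.741). Of the alternatives run, only weighting the samples by their fit called it higher, with a log2 change of 0.78 (limma adjusted p = 0.00424). Acta2 lies on chromosome 19 from 34241090 to 34255590 (minus strand, GRCm38), and its promoter carries the looser boxes printed above.

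Tagln (ENSMUSG00000032085), which encodes the actin-binding protein SM22-alpha, was low and scattered. It had 239, 75, 116 and 1 reads in WT replicates 1 to 4 and 228, 31 and 63 reads in Ngfr KO replicates 1 to 3. Replicate 1 was the highest in both genotypes, and the groups overlapped fully (edgeR log2 change -0.05, adjusted p = 0.982). The antisense gene Gm48529 covers 62.4% of the exon length of Tagln, and without strand information reads of the pair cannot be told apart.

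Of the PDGF receptor genes, Pdgfra rose and Pdgfrb passed no test. Pdgfra (ENSMUSG00000029231) had values of 4.83, 9.92, 6.74 and 9.81 in WT replicates 1 to 4 and of 11.7, 11.9 and 13.1 in Ngfr KO replicates 1 to 3. Every Ngfr KO sample was above every WT sample, and the Ngfr KO samples lay within 1.12 times of each other. The mean rose from 7.83 ± 2.48 to 12.2 ± 0.7 (log2 change 0.63, SE 0.22, adjusted p = 0.0440 by limma). The call was close to its threshold: it was lost with edgeR (log2 change 0.71, adjusted p = 0.0828), with quantile normalization (limma adjusted p = 0.120), with other filters (0.117 and 0.0538) and with a pseudocount of 0.1 (0.0505). It was lost also without WT replicate 1 (limma adjusted p = 0.108), without WT replicate 3 (0.0837) and without Ngfr KO replicate 1, 2 or 3 (0.0888, 0.0970 and 0.0936). Pdgfra lies on chromosome 5 from 75152292 to 75198215 (plus strand, GRCm38).

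Pdgfrb (ENSMUSG00000024620), the receptor of mural cells and of FDC precursors, had 46, 120, 31 and 136 reads in WT replicates 1 to 4 and 71, 133 and 59 reads in Ngfr KO replicates 1 to 3. WT replicates 2 and 4 and Ngfr KO replicate 2 were the higher samples, and the groups overlapped (edgeR log2 change 0.06, adjusted p = 0.961). Per kilobase of exon, Pdgfra exceeded Pdgfrb 10.3-fold to 27.3-fold in the WT samples and 14.5-fold to 30.2-fold in the Ngfr KO samples. A difference of the receptor ratio between the genotypes was not tested, and its ranges overlapped.

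Among the mural cell genes, Rgs5 was abundant and Mcam and Cspg4 were not. Rgs5 (ENSMUSG00000026678) encodes a regulator of G-protein signalling that shortens signals of vasoactive receptors in pericytes. Its values were 12.3, 23.9, 25.1 and 39.7 in WT replicates 1 to 4 and 29.2, 20.6 and 50.1 in Ngfr KO replicates 1 to 3. Both groups spread more than their means differed, 25.2 ± 11.2 against 33.3 ± 15.2. limma gave a log2 change of 0.40 (SE 0.35, adjusted p = 0.393) with a 95% interval from -0.37 to 1.17. Rgs5 lies on chromosome 1 from 169655501 to 169695813 (plus strand, GRCm38).

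Mcam (ENSMUSG00000032135), which encodes an adhesion molecule, had values of 1.09, 0.341, 0.787 and 0.690 in WT replicates 1 to 4 and of 0.660, 0.166 and 0.0881 in Ngfr KO replicates 1 to 3. Ngfr KO replicates 2 and 3 were below every WT sample, while Ngfr KO replicate 1 lay within the WT range. The edgeR log2 change of -1.17 did not pass the test (adjusted p = 0.263). The endothelial markers, a cell type in which Mcam is also expressed, were lower in the same samples, and their part was not tested. Cspg4 (ENSMUSG00000032911) was covered by 0, 5, 2 and 21 reads in WT and by 0, 21 and 0 reads in Ngfr KO. With 1 sample in each genotype holding most of its reads, a difference in Cspg4 was not detectable at this depth. For a library at 0, a count of 0 allows up to 3 reads, which is a value of 0.0109 to 0.0120, counting error only.

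**Figure D2:**
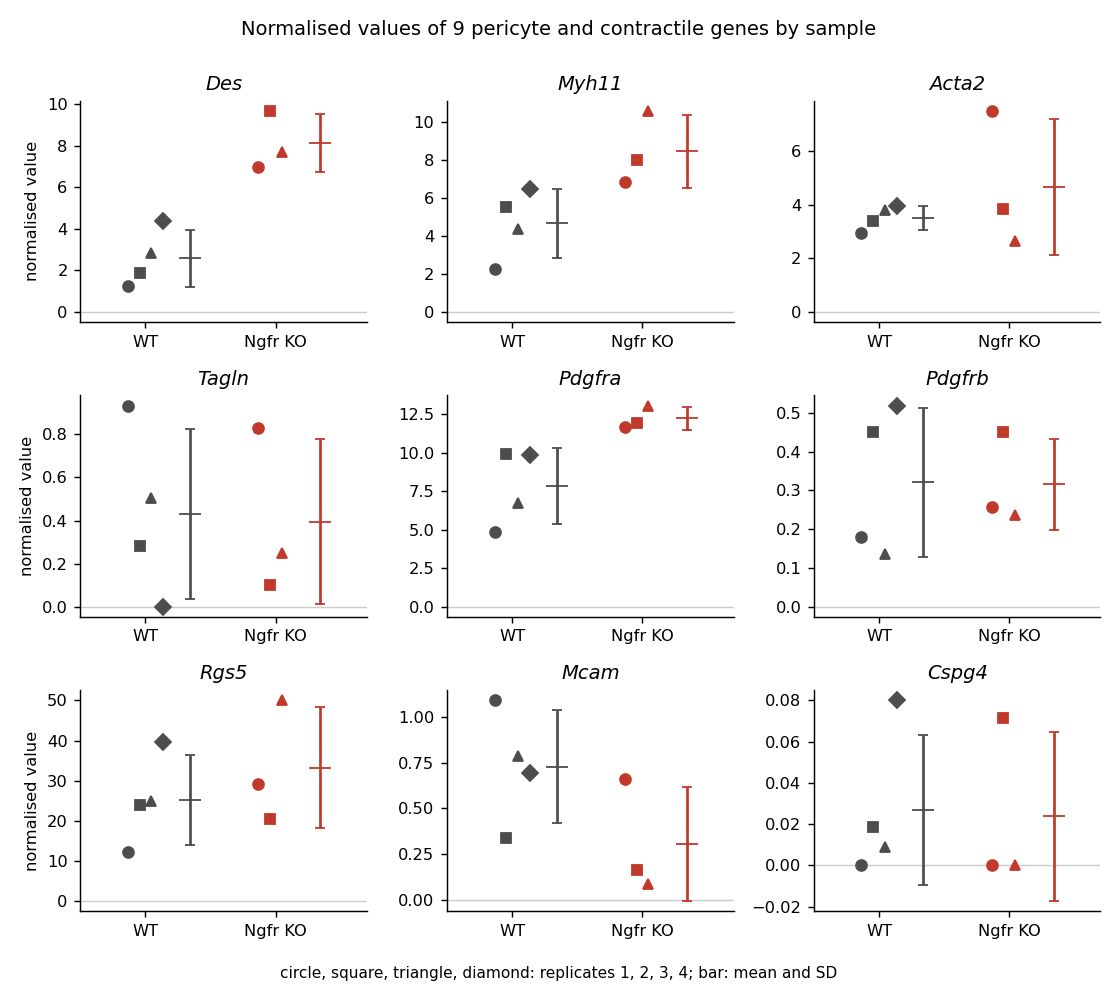
Normalised value (y axis, its own linear scale in each panel) of 9 genes in WT (grey) and Ngfr KO (red) samples; symbols are replicates 1 to 4, and bars are the mean and SD. The genotypes separate fully for Des, Myh11 and Pdgfra and overlap for the other 6 genes.

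Counted together, 5 of the 9 genes passed the filter, and these 5 were above 1 in all 7 samples. limma called 3 of them higher (Des, Myh11 and Pdgfra), 0 lower, and 2 not (Acta2 and Rgs5). Over all 8326 genes tested, 34.2% were called, 18.3% higher and 15.8% lower. The groups did not overlap in the same 3 genes, all with Ngfr KO above, where 40.9% of all genes tested did not overlap and 22.6% had Ngfr KO above. The median log2 change of the 5 genes was 0.63, against 0.02 over all genes tested. edgeR on the recovered reads tested 8 of the genes and called 1, Des, where it called 15.2% of 16751 genes in either direction, 8.67% higher and 6.55% lower. Myh11, Des, Pdgfra and Rgs5 each had their lowest value of all 7 samples in WT replicate 1, which also had the lowest FDC marker sum (1753).

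**Figure D3:**
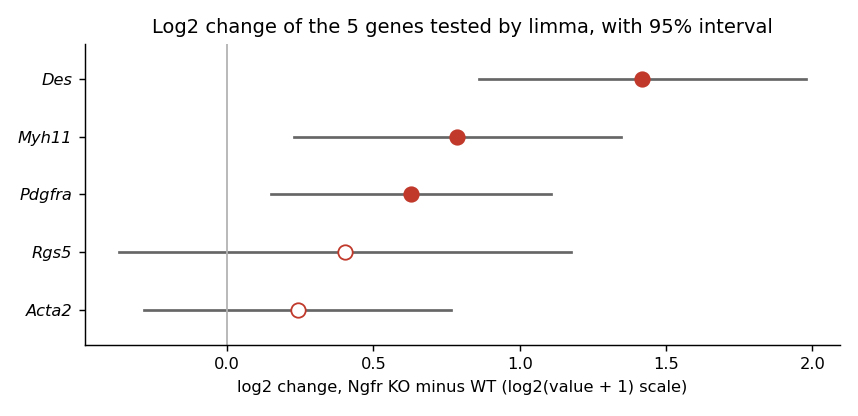
Log2 change of Ngfr KO minus WT on the log2(value + 1) scale (x axis) for the 5 genes tested by limma, with 95% intervals; filled points had an adjusted p under 0.05. The intervals of Des, Myh11 and Pdgfra lie above 0, and those of Rgs5 and Acta2 span it.

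Levels of different genes were ordered after division by exon length. In WT, Rgs5 stood first with 5.55 ± 2.47 per kilobase, followed by Acta2 with 1.60 ± 0.20, and neither range touched that of the next gene. Pdgfra (0.781 ± 0.247), Des (0.685 ± 0.366) and Myh11 (0.613 ± 0.238) followed with overlapping ranges, and the range of Myh11 also overlapped that of Mcam. Mcam (0.217 ± 0.092), Tagln (0.216 ± 0.197) and Pdgfrb (0.0585 ± 0.0350) followed with ranges that overlapped from one to the next, and Cspg4 was last at 0.00225 ± 0.00304, below every Pdgfrb sample.

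In Ngfr KO the same scale placed Rgs5 first again, at 7.32 ± 3.34 per kilobase. Des stood second at 2.16 ± 0.37, with a range overlapping that of Acta2 (2.13 ± 1.15). The range of Pdgfra (1.22 ± 0.07) overlapped those of Acta2 and of Myh11 (1.11 ± 0.25). Pdgfra and Myh11 lay clear of the next gene, Tagln (0.199 ± 0.192). Mcam (0.0910 ± 0.0926) and Pdgfrb (0.0575 ± 0.0216) came after it with overlapping ranges, and Cspg4 was again last. Des ranked 4 in WT and 2 in Ngfr KO. The ratio of Des to Acta2 per kilobase was 0.242 to 0.650 in the WT samples and 0.543 to 1.69 in the Ngfr KO samples.

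**Figure D4:**
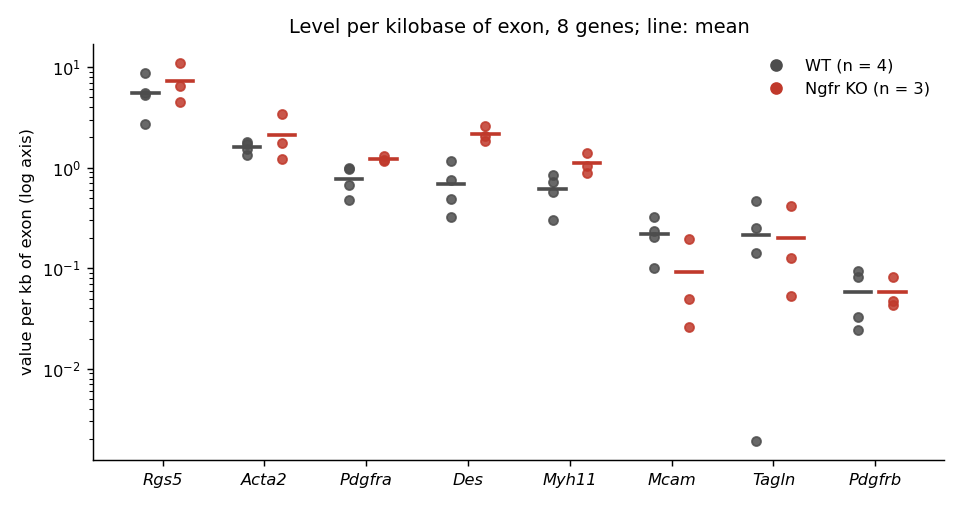
Value per kilobase of exon (y axis, log scale) for 8 genes in order of their WT mean, one point per sample and a line at each mean; Cspg4, with samples at 0, is left out. Rgs5 is highest in both genotypes, and the low Tagln point is WT replicate 4, with 1 read.

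Other genes of the contractile apparatus were called in both directions. Of 27 listed genes, 26 were in the table and 22 were tested; limma called 5 higher and 4 lower, with a median log2 change of 0.03 against 0.02 over all genes tested, where 18.3% were called higher and 15.8% lower. Of the 9 called, 4 passed the filter only through the group where they were high, Tpm2 through Ngfr KO and Smtn, Pgm5 and Nexn through WT. Tagln2, a broadly expressed relative of Tagln, rose from 21.7 ± 9.5 in WT to 65.8 ± 5.5 in Ngfr KO (log2 change 1.65, SE 0.28, adjusted p = 0.00153 by limma). The calponin gene Cnn2, whose box is printed above, rose by 1.06 (SE 0.19, limma adjusted p = 0.00178) and its relative Cnn3 by 0.75 (limma adjusted p = 0.0181). Cnn3 lost its call in 4 of 18 alternatives: with no filter (limma adjusted p = 0.0562) and without WT replicate 2 (0.0626), Ngfr KO replicate 1 (0.0642) or Ngfr KO replicate 2 (0.0662). The tropomyosin gene Tpm1 rose by 0.93 (limma adjusted p = 0.00315), and Tpm2, named after its values were seen, was the fifth.

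Of the genes called lower, Smtn, which encodes smoothelin, fell from 1.95 ± 0.46 to 0.609 ± 0.259 (log2 change -0.87, SE 0.17, adjusted p = 0.00333 by limma, adjusted p = 0.0193 by edgeR). Pgm5, an adhesion plaque protein, had a log2 change of -1.04 and Nexn, an actin-binding protein, of -0.83, with limma adjusted p-values of 0.00233 and 0.00154 and edgeR adjusted p-values of 0.00893 and 0.00704. The fourth, named after its values were seen, was the intermediate filament gene Synm, a partner of desmin (log2 change -0.70, limma adjusted p = 0.0356), with overlapping groups and no call by edgeR (adjusted p = 0.0712). Itga8, an integrin of contractile cells that was also picked after its values were seen, failed the filter with 32 to 88 reads in WT and 0 reads in each Ngfr KO library. Its mean was at least 72.2-fold lower in Ngfr KO, taking 3 reads over the group as the floor (edgeR adjusted p = 0.00554).

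Of 10 listed regulators of SRF-dependent transcription, 9 were in the table and 6 were tested, with 2 called higher and 3 lower and a median log2 change of -0.50, against 18.3% higher and 15.8% lower over all genes tested. Tgfb1i1, which encodes the focal adhesion protein HIC-5, rose from 1.75 ± 0.35 in WT to 4.17 ± 0.42 in Ngfr KO (log2 change 0.92, SE 0.16, adjusted p = 0.00156 by limma). The LIM protein gene Fhl1 rose by 0.84 (limma adjusted p = 0.00544), but it passed the filter only through Ngfr KO samples (edgeR log2 change 1.47, adjusted p = 0.0210). Csrp2, a LIM protein of smooth muscle, fell from 8.84 ± 1.80 to 2.66 ± 0.74 (log2 change -1.43, SE 0.19, adjusted p = 5.02e-04 by limma). Klf4, known as a repressor of contractile genes in smooth muscle, had a log2 change of -2.37 (limma adjusted p = 1.16e-04). Srf itself lay between 1.01 and 2.04 in the WT samples and between 0.316 and 1.34 in the Ngfr KO samples (log2 change -0.57, limma adjusted p = 0.0519). It was called lower with array weights, without WT replicate 2 and without Ngfr KO replicate 3 (limma adjusted p = 0.00255, 0.0440 and 0.0120). Of its coactivator genes, Mkl2 had a log2 change of -0.42 that lost its call in 12 of 17 alternatives (limma adjusted p = 0.0447), and Mkl1 failed the filter (edgeR log2 change 0.60, adjusted p = 0.237).

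Among the PDGF ligand genes, Pdgfd rose and Pdgfa and Pdgfb fell. Pdgfd, whose product acts on PDGFRB, lay between 0.378 and 0.722 in the WT samples and between 1.35 and 1.77 in the Ngfr KO samples. Its log2 change was 0.77 (SE 0.14, limma adjusted p = 0.00241). Having passed the filter only through the Ngfr KO samples, it could be tested only because it was high there, and edgeR gave 1.73 (adjusted p = 0.00802). Pdgfa, the ligand of PDGFRA, fell from 3.01 ± 1.01 to 1.21 ± 0.24 (log2 change -0.83, SE 0.20, adjusted p = 0.00926 by limma). Without a filter its limma adjusted p was 0.0510. Pdgfb, the endothelial ligand that recruits mural cells, lay between 0.483 and 1.65 in the WT samples and between 0.0360 and 0.295 in the Ngfr KO samples, and was lower by edgeR (log2 change -2.62, adjusted p = 0.0332). limma without a filter did not call it (log2 change -0.79, adjusted p = 0.0673). The endothelial marker sum fell in the same samples, and its part in the fall of Pdgfb was not tested. Pdgfc did not pass a test (edgeR log2 change -1.33, adjusted p = 0.296).

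Of all 25 listed genes of PDGF ligands and signalling, 20 were tested, 1 was called higher and 5 lower, with a median log2 change of -0.27, so 6 of 20 were called where 34.2% of all genes tested were. Pdgfa, Plcg1 and Gab1 had fewer than 3 Ngfr KO samples at a value of 1 and so passed the filter only through WT samples. Pdgfa did reach 1.23 and 1.44 in Ngfr KO replicates 2 and 3. For Pdgfa, Plcg1 and Gab1, edgeR gave adjusted p-values of 0.0224, 0.00845 and 0.0308. The signal carriers called lower were the phospholipase gene Plcg1 (log2 change -0.97, limma adjusted p = 0.00151), the Ras activator gene Sos1 (-0.73, limma adjusted p = 0.00325), the adaptor gene Gab1 (-0.63, limma adjusted p = 0.00926) and Shc1, an adaptor named after its values were seen. These proteins serve many receptors besides those of PDGF.

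Other genes known from pericytes and mural cells numbered 23, of which 20 were in the table and 8 were tested; 3 were called higher and 2 lower, and the median log2 change was 0.14. Over all genes tested 18.3% were called higher and 15.8% lower. Angpt1 and Art3 passed the filter only through WT samples. Gja4, which encodes the gap junction protein connexin 37 of arteries and mural cells, had values of 4.11, 10.4, 19.3 and 20.9 in WT replicates 1 to 4 and of 57.3, 89.7 and 70.9 in Ngfr KO replicates 1 to 3. The groups lay far apart (log2 change 2.51, SE 0.41, adjusted p = 0.00134 by limma). Steap4, a metalloreductase gene, rose by 1.43 (SE 0.15, limma adjusted p = 2.46e-04). Kcnj8, the pore subunit of the ATP-sensitive potassium channel of pericytes, rose by 0.73 (SE 0.19, limma adjusted p = 0.0135). Its call was lost without Ngfr KO replicate 1 (log2 change 0.56, limma adjusted p = 0.0691) and with no filter (limma adjusted p = 0.0572). Angpt1, the mural ligand of the endothelial receptor TIE2, had a log2 change of -0.80 (limma adjusted p = 0.0114) and Art3, a member of the ADP-ribosyltransferase family, of -0.59 (limma adjusted p = 0.0208). limma with no filter did not call Angpt1 (adjusted p = 0.0646), while edgeR called Angpt1 (adjusted p = 0.0161) and not Art3 (adjusted p = 0.0814). Gja4 made up 12.1% to 47.5% of the summed value of this list in WT and 64.8% to 78.3% in Ngfr KO. Without Gja4 the sum was 20.8 to 29.7 in WT against 24.8 to 31.1 in Ngfr KO, and the groups overlapped.

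**Figure D5:**
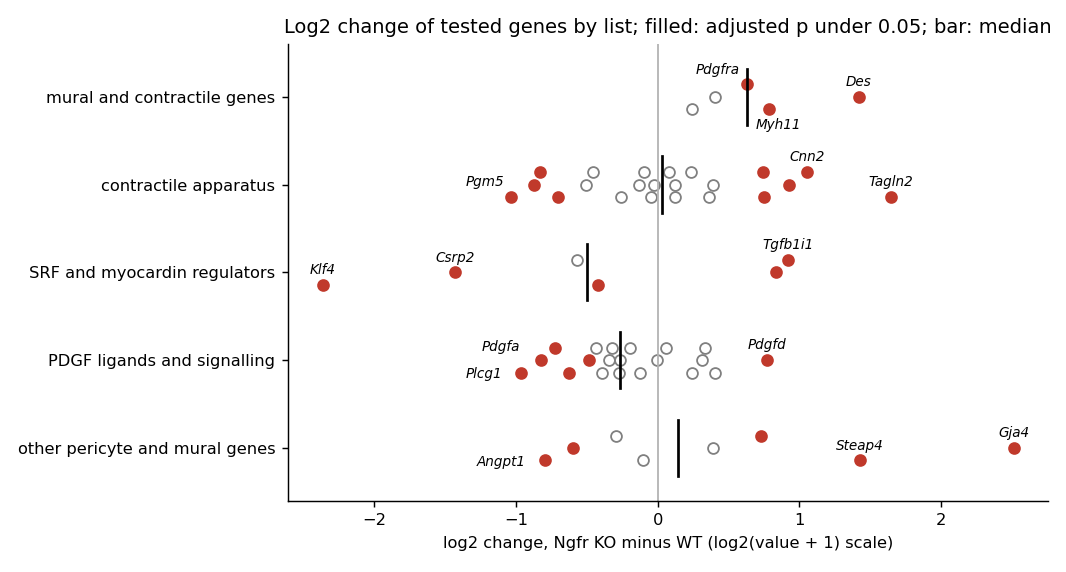
Log2 change of Ngfr KO minus WT on the log2(value + 1) scale (x axis) for each gene tested by limma in the listed mural and contractile genes (top row) and 4 related lists; filled points had an adjusted p under 0.05, and bars are medians. Each of the 4 related lists holds genes called in both directions.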

How the data were processed

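RNA was measured by sequencing in 7 samples, 4 WT and 3 Ngfr KO, grouped by sample title. The kits, per the labels' protocols, were SMART-Seq v4 for cDNA and Nextera XT for libraries, which does not mark strand. The values are a normalised signal that the authors deposited in 1 table, called TMM (trimmed mean of M values) in its name. The submitters' processing notes name mm10 and bcl2fastq 2.20.0.422; the aligner, counting program, annotation and TMM software are not given in the sources used here. In every sample 100% of values above 0 were whole multiples of 1 step (tolerance 0.01), so reads were recovered by division. No gene length had been divided out. Amplified reads are not independent molecules, so floors cover counting error only.

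Ngfr KO was compared with WT by limma 3.58.1 in R 4.3.3 (eBayes with trend) on log2(value + 1), over the 8326 genes that reached a value of 1 in 3 or more samples, with Benjamini-Hochberg adjustment over these genes and a threshold of 0.05. The pseudocount of 1 understates the change of low genes. For genes failing the filter the reported test is edgeR 4.0.16 (quasi-likelihood test, filterByExpr) on recovered reads. The series text calls the pools independent samples, and p-values measure the spread between these pools. Positions and exon lengths came from GENCODE M21 (GRCm38, the assembly of mm10), matched by identifier for 21137 genes, with 39 unmatched. Promoters came from RefSeq on GRCm38.p6.

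The genes, lists and tests were chosen with earlier results of these data known. The text names all listed mural and contractile genes, Ngfr, the PDGF ligands, Srf, Mkl1, Mkl2 and Notch3, and from each of 4 related lists up to 4 called genes per direction with the largest change whose groups did not overlap; other names were added after values were seen. The expression of listed genes with no row in the table was not analysed here. Alternatives were other pseudocounts (0.1, 5), no filter, a filter raised to a value of 10, median ratio scaling, quantile normalization, array weights, eBayes made robust and run without its trend, a block for replicate number, edgeR, DESeq2 1.42.0 on recovered reads, and leaving out each replicate. The scripts were tested on simulated data. Marker lists of adventitial fibroblasts, myeloid and adipose cells were also read. A further marker list is not reported here.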

Additional observations from a re-analysis of the deposited data

Results flagged for a closer look

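Among 37 genes examined for a WT sample far from the other 3, Tgfb1i1 was picked out. Chance picks out about 1 gene in 20, so 1 such gene among 37 is no more than chance gives. WT replicate 1 stood at 1.23, below the remaining WT values of 1.88 to 1.98, and this gap was 0.865 of the whole WT range.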

How the results depend on the processing

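The count of listed mural and contractile genes called higher, 3 of 5 tested, was 1 with no filter, with quantile normalization and with edgeR, 0 with the stricter filter (which tested only Pdgfra and Rgs5) and 1 to 3 when 1 replicate was left out; 0 were called lower under any alternative run. Myh11 lost its call with no filter (log2 change 0.79), quantile normalization (0.69) and edgeR (0.92). Pdgfra lost it with a pseudocount of 0.1 (0.69), no filter and the stricter filter (0.63 in both), quantile normalization (0.49) and edgeR (0.71). Acta2 gained a call with array weights (0.78). Leaving out 1 replicate gave log2 changes of 1.22 to 1.64 for Des, 0.55 to 0.94 for Myh11, 0.44 to 0.75 for Pdgfra, 0.07 to 0.69 for Rgs5 and -0.10 to 0.51 for Acta2. Over all genes, 2844 calls became 535 with the stricter filter, 4881 with array weights and 1727 to 3051 without 1 replicate; the share of calls that were higher was 53.7% as reported, 67.1% with the stricter filter and 59.5% and 49.0% with median ratio scaling and quantile normalization. The stricter filter tests fewer genes; for the other changes the cause was not tested.

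In the related lists the stricter filter left 3 higher and 0 lower for the contractile apparatus, 0 and 1 for SRF regulators, 0 and 0 for PDGF genes and 1 and 0 for other mural genes. Array weights gave 8 higher and 7 lower contractile genes and 4 higher and 9 lower PDGF genes. With no filter 3 PDGF genes and 0 mural genes were lower, and edgeR called 1 mural gene lower. Without 1 replicate the contractile list had 4 to 6 higher and 3 to 5 lower, SRF regulators 2 higher and 2 to 3 lower, PDGF genes 1 to 2 higher and 4 to 7 lower, and mural genes 2 to 3 higher and 1 to 2 lower.

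Whether the numbers in the titles pair the samples could not be settled from so few pairs. Deviations of equally numbered samples correlated at 0.30, -0.06 and -0.01, and not every sample correlated best with its own number. The 0.30 of WT replicate 1 and Ngfr KO replicate 1 was the highest of all combinations, followed by 0.11 for WT replicate 3 and Ngfr KO replicate 2. With the replicate number as a block, in which WT replicate 4 carries no information, 2717 genes and 3 of the listed mural and contractile genes were called.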

Other observations

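Markers of other cells gave values that no comparison above uses. Adventitial fibroblast markers summed to between 0.804 and 7.05 in WT and between 3.12 and 5.74 in Ngfr KO. Myeloid markers summed to 1.93 to 6.98 against 4.54 to 30.1, the highest in Ngfr KO replicate 3 through Lyz2 (28.1). The single adipocyte marker in the table, Plin1, stayed at or below 0.0311.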
